A study of Mus musculus with 11 samples.

Results

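The m6A machinery was followed as 10 genes, chosen by symbol from the 23284 gene rows of each library. Mettl3, Mettl14 and Wtap are writers, Ythdf1, Ythdf2, Ythdf3, Ythdc1 and Ythdc2 are readers, and Fto and Alkbh5 are erasers. All 10 passed the filter on low values (mean scaled TPM above 1). The libraries came from mouse embryonic stem cells (ESCs) grown on gelatin with serum and leukemia inhibitory factor, either wild type (WT) or with Tet1, Tet2 and Tet3 all knocked out (TKO), the Tet proteins being dioxygenases that oxidize 5-methylcytosine. Ribodepleted RNA of each genotype was sequenced from untreated cells (0 h) and from cells kept for 4 h with the RNA polymerase II inhibitor α-amanitin at 10 µg/ml, as 2 libraries for each of these 4 groups. The remaining group held 3 libraries of polyA-selected RNA from WT cells, with no treatment named. The study describes the α-amanitin experiments as done in biological duplicate, and clones behind the replicates are not given in the sources used here, so p-values measure the spread between these libraries. The comparisons ask whether the transcripts of the m6A machinery differ between genotypes, after inhibition of transcription and between RNA selections.

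N6-methyladenosine (m6A) is an internal mark of messenger RNA. A heterodimer of the catalytic protein METTL3 and its RNA-binding partner METTL14 deposits it, with WTAP as the adaptor that holds the complex in nuclear speckles. Proteins with a YTH domain bind the methylated base, and FTO and ALKBH5, both iron- and 2-oxoglutarate-dependent like the Tet proteins, can remove it. In mouse ESCs, m6A is known for shortening the life of transcripts of pluripotency regulators and for helping cells leave the naive state.

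Recovered totals were 25507874 to 29781366 reads in the ribodepleted libraries and 72639837 to 82129168 in the polyA libraries. Members held 743 reads (Mettl14) to 6302 reads (Wtap) in a ribodepleted library, and 743 reads carry a counting error of 3.67%. Tet1 was at 123 to 148 TPM in WT and 32.3 to 32.8 TPM in TKO at 0 h, and Tet2 at 47.7 to 57.2 and 7.79 to 8.32 TPM. Tet3 at 0 h was at 1.46 to 1.47 TPM in WT and 1.498 to 1.642 TPM in TKO, with a log2 change of 0.00048 (limma, adjusted p = 0.997). All 8 ESC markers exceeded 1 TPM in every library. The summed TPM of 6 fibroblast markers was 7.51 to 9.82 in the WT and 12.5 to 14.3 in the TKO ribodepleted libraries, and of 4 trophectoderm markers 2.27 to 3.34 and 4.34 to 5.58, while 5 primitive endoderm markers summed to 2.97 to 4.14 and 1.66 to 2.74. The 4 primed epiblast markers summed to 18.1 to 19.8 in WT and 21.5 to 23.0 in TKO at 0 h, and to 13.3 to 15.1 and 17.5 to 17.9 at 4 h. The ESC markers summed to 4455 to 4517 in the WT and 4288 to 4410 in the TKO ribodepleted libraries. Of the markers of other cell types, Lum alone was at 0 in both libraries of a group (WT at 0 h). These sums separate the genotypes, and their part in the differences between genotypes was not tested. The 2 TKO libraries at 4 h differed more than the other ribodepleted pairs, by a chi-square of 7.46 per degree of freedom against 1.53 to 4.34.

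The promoters of Ythdf1, Fto and Mettl3 are shown because these are 3 of the 4 members that were lower in TKO at both times, Ythdf3 being the other. CpG is the dinucleotide that carries most DNA methylation in mouse. Each line is the 250 bases upstream of a RefSeq gene start in GRCm38.p6, read 5′ to 3′ on the gene's strand, with every CpG in capitals.
Ythdf1 (chr2:180920937-180921186, minus strand): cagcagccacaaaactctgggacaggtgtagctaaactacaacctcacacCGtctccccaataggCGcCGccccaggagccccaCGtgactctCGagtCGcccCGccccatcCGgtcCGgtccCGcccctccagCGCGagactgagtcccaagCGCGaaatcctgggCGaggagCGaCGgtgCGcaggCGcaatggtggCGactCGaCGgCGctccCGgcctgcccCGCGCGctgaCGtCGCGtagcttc
Fto (chr8:91313275-91313524, plus strand): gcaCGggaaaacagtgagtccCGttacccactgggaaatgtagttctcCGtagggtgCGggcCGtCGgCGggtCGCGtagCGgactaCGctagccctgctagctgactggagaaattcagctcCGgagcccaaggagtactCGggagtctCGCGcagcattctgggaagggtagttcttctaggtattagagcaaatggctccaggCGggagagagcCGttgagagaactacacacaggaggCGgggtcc
Mettl3 (chr14:52305125-52305374, minus strand): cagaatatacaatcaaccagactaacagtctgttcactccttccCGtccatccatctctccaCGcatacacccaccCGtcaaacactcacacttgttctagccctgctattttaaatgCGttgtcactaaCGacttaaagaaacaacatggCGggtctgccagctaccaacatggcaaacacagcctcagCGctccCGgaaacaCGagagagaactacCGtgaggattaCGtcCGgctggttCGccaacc
The windows hold 30, 18 and 13 CpG, against a median of 6 over 32851 RefSeq promoter windows of the same length. At least as many CpG were present in 5.9%, 21.7% and 31.5% of all windows. A promoter was matched for 7 of the 10 members, and these windows held 13 to 41 CpG, so each was above the median. The CpG count describes the sequence only, since no methylation was measured in these libraries.

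In the annotation of mm9, the build of the deposited values, Ythdf1 spans chr2:180639082-180655654 on the minus strand and Fto spans chr8:93837431-94192338 on the plus strand. Mettl3 spans chr14:52914343-52924803 on the minus strand, and Tox4 overlaps it on the opposite strand. Mettl14 (chr3:123067563-123088908, minus strand) overlaps Sec24d, and Fto overlaps the predicted gene Gm3235, each on opposite strands. The strand setting of the counting was not stated, so values of Mettl3, Mettl14 and Fto may include reads of these partners.

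Every member was expressed in every library, with Ythdf1 or Ythdf2 the most abundant and Ythdc2 the least abundant in each of the 5 groups. In untreated WT cells, deposited TPM, which is corrected for length, was 96.7 ± 0.49 (SD, n = 2) for Ythdf1 and 95.9 ± 2.37 for Ythdf2. Ythdc1 (76.5 ± 5.58), Ythdf3 (73.2 ± 3.79), Wtap (63.5 ± 2.40) and Mettl3 (52.7 ± 4.46) followed. Alkbh5 (45.7 ± 5.03), Fto (34.6 ± 1.17), Mettl14 (25.8 ± 2.38) and Ythdc2 (17.2 ± 0.67) were lowest. Library ranges overlapped between the neighbours Ythdf1 and Ythdf2 and between Ythdc1 and Ythdf3, and all other neighbours in this order were apart. In untreated TKO cells the order was the same except that Ythdf2, at 96.4 ± 0.57 TPM, stood above Ythdf1, at 84.7 ± 0.44 TPM, with no overlap. YTH readers together made up 350 to 369 TPM in WT and 344 to 345 TPM in TKO at 0 h, and the 3 writers 135 to 148 and 138 to 140 TPM.

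**Figure D1:**
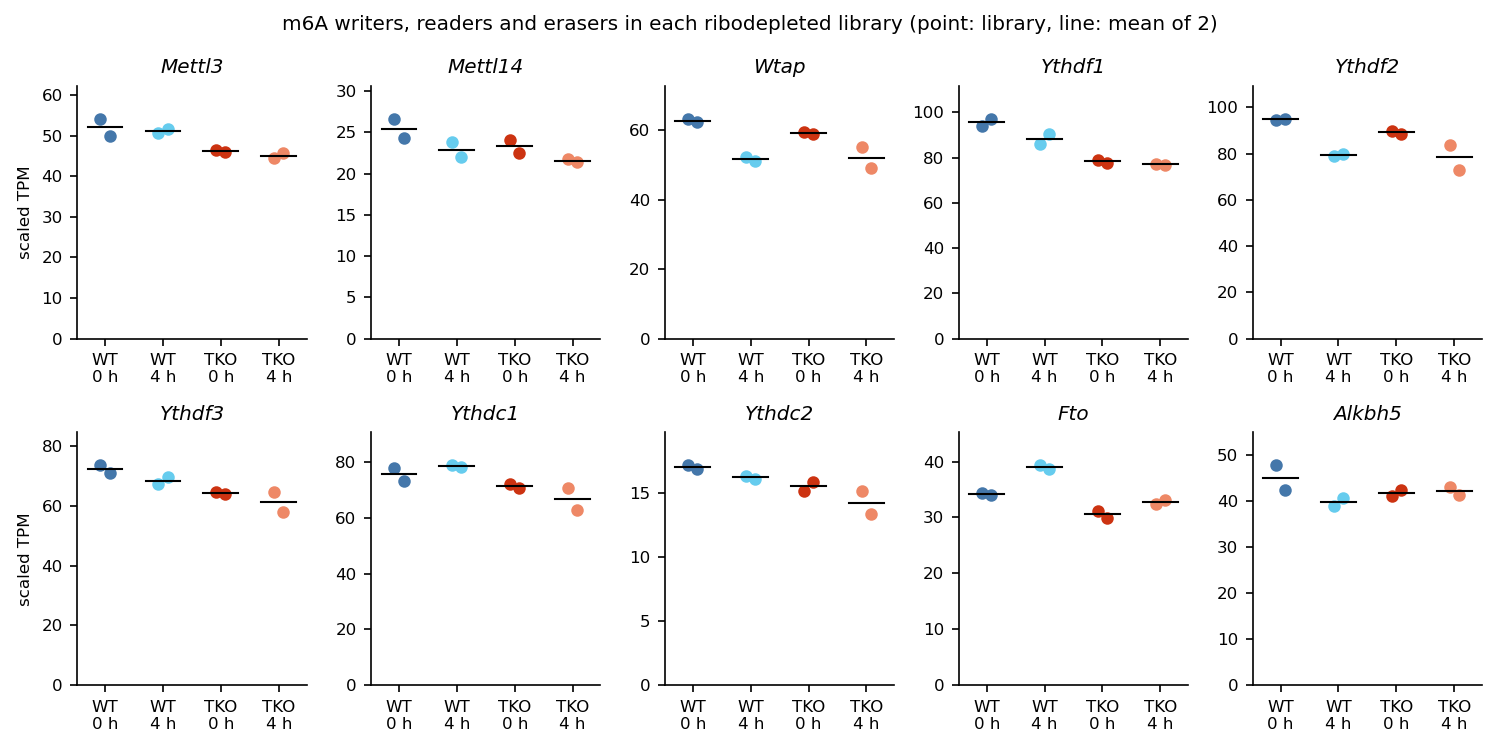
Scaled TPM of each member (vertical axis, from 0) in the 8 ribodepleted libraries by genotype and hours in α-amanitin. Points are libraries and lines are means of 2. Ythdf1 lies at 85.8 to 97.1 in the WT and 76.7 to 78.9 in the TKO libraries.

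The members that differed between genotypes were lower in TKO, each by less than 1.5-fold. At 0 h, 4 of 10 members passed the threshold (limma, adjusted p under 0.05 over 12467 genes), namely Mettl3, Ythdf1, Ythdf3 and Fto, all lower. Of all genes tested, 28.2% passed as lower and 27.8% as higher, so the count of 4 is not far above the background. At 4 h, 6 of 10 passed, all lower, namely the same 4 with Ythdc1 and Ythdc2, beside 30.3% of all genes passing as lower and 29.1% as higher. The comparisons share no library but 1 estimate of the spread. In bulk RNA, fewer expressing cells and less RNA per cell cannot be told apart. The median log2 change of the members was -0.12 at 0 h and -0.17 at 4 h, against -0.02 and -0.01 over all genes tested. No member passed 1.5-fold, which 5.43% of genes passed as lower and 10.5% as higher at 0 h, and 5.82% and 11.0% at 4 h.

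The size of these differences depends on how libraries are scaled. Changes are given on log2(scaled TPM + 1), where TPM was divided by median-of-ratios size factors. With deposited TPM as it stands, the median of all genes moved to 0.07 at 0 h and 0.14 at 4 h, and Ythdf1 alone (-0.19) still passed at 0 h, while at 4 h Alkbh5 alone passed, as higher (0.23). On that scale 4168 genes were higher and 2191 lower at 0 h, against 3471 and 3518 here, and 5035 and 2066 against 3625 and 3779 at 4 h. All 10 members were below 0 at 0 h, but Wtap (0.01), Ythdf2 (0.01) and Ythdc1 (0.02) turned with deposited TPM.

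Among the writers, Mettl3, the catalytic subunit, was lower in TKO at both times. Its scaled TPM was 54.1 and 49.9 in WT and 46.4 and 46.1 in TKO at 0 h, and 50.7 and 51.6 in WT and 44.4 and 45.6 in TKO at 4 h. The 4 WT libraries all lay above the 4 TKO libraries. The log2 change was -0.16 ± 0.05 (SE) at 0 h (limma, adjusted p = 0.0221) and -0.18 ± 0.05 at 4 h (limma, adjusted p = 0.0133). Both calls were lost with deposited TPM (-0.07 and -0.03) and with quantile normalization (-0.12 at each time), and the call at 0 h in 3 of 8 fits that left out 1 library. After 4 h of α-amanitin the log2 change of Mettl3 was -0.02 in WT (limma, adjusted p = 0.76) and -0.04 in TKO (limma, adjusted p = 0.654).

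Mettl14, the RNA-binding partner of METTL3, was at 26.6 and 24.3 scaled TPM in WT and 24.1 and 22.5 in TKO at 0 h. At 4 h it was at 23.8 and 22.0 in WT against 21.7 and 21.4 in TKO. WT lay above TKO at each time without overlap, but the log2 changes of -0.12 (95% interval -0.27 to 0.03) and -0.08 (-0.23 to 0.07) did not pass (limma, adjusted p = 0.15 and 0.317). Its changes with α-amanitin, -0.15 in WT and -0.11 in TKO, did not pass either (limma, adjusted p = 0.108 and 0.329).

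Wtap, the adaptor of the complex, was the writer transcript that changed with α-amanitin. It went from 63.2 and 62.3 scaled TPM at 0 h to 52.4 and 51.1 at 4 h in WT, and from 59.5 and 58.8 to 55.1 and 49.1 in TKO. In both genotypes the 4 h libraries lay below those at 0 h, and the TKO pair at 4 h was spread wider than the WT pair. In WT it fell by 0.27 ± 0.06 (SE) on the log2 scale (limma, adjusted p = 0.00972). In TKO the log2 change was -0.18 (95% interval -0.31 to -0.05), with a limma adjusted p = 0.132. Between genotypes Wtap did not pass at 0 h (-0.08, limma adjusted p = 0.24) or at 4 h (0.01, limma adjusted p = 0.922).

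Of the cytoplasmic readers, Ythdf1, known for promoting translation of methylated transcripts, had the largest difference between genotypes at 0 h among the 10. It was at 94.1 and 97.1 scaled TPM in WT against 78.9 and 77.7 in TKO at 0 h, and at 85.8 and 90.6 against 77.3 and 76.7 at 4 h. Every WT library lay above every TKO library. The log2 change was -0.28 ± 0.04 (SE) at 0 h (limma, adjusted p = 0.000756) and -0.19 ± 0.04 at 4 h (limma, adjusted p = 0.00543). It passed in every fit that left out 1 library, at log2 changes of -0.31 to -0.27 at 0 h and -0.24 to -0.16 at 4 h. The 4 h call was lost with deposited TPM (-0.04) and with quantile normalization (-0.08). With α-amanitin its change was -0.12 in WT (limma, adjusted p = 0.071) and -0.02 in TKO (limma, adjusted p = 0.761).

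Ythdf2, the reader best known for sending methylated transcripts to decay, moved with α-amanitin and not detectably with genotype. It was at 94.6 and 95.0 scaled TPM in WT at 0 h and at 78.9 and 79.8 at 4 h, and at 89.9 and 88.4 in TKO at 0 h and at 83.6 and 73.1 at 4 h. In each genotype both libraries at 4 h lay below both at 0 h. In WT it fell by 0.25 ± 0.06 (SE) on the log2 scale (limma, adjusted p = 0.0144), and in TKO the log2 change was -0.19 (95% interval -0.33 to -0.05), with a limma adjusted p = 0.135. TKO against WT gave -0.09 (95% interval -0.23 to 0.05) at 0 h and -0.02 (-0.16 to 0.12) at 4 h.

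Ythdf3, which acts together with the other YTHDF proteins, was at 73.5 and 71.1 scaled TPM in WT and 64.5 and 64.0 in TKO at 0 h. At 4 h it was at 67.2 and 69.5 in WT against 64.7 and 58.0 in TKO. WT was above TKO at each time, though the first TKO library at 4 h lay level with TKO at 0 h. The log2 change was -0.17 ± 0.06 (SE) at 0 h (limma, adjusted p = 0.0331) and -0.16 ± 0.06 at 4 h (limma, adjusted p = 0.0405). Ythdf3 lost both calls with deposited TPM (-0.07 and -0.001) and with quantile normalization (-0.10 and -0.06). It passed in 2 and 3 of the 8 fits that left out 1 library.

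Ythdc1, the nuclear reader that takes part in splicing and export, passed between genotypes at 4 h only. It was at 78.0 and 73.1 scaled TPM in WT and 72.3 and 70.9 in TKO at 0 h, and at 78.8 and 78.1 in WT against 70.9 and 62.8 in TKO at 4 h. WT lay above TKO at each time without overlap. The change was -0.08 (95% interval -0.22 to 0.06) at 0 h and -0.23 ± 0.06 (SE) at 4 h (limma, adjusted p = 0.0109). The 4 h call of Ythdc1 was lost with deposited TPM (-0.07) and with quantile normalization (-0.11). Ythdc2, an RNA helicase with a YTH domain known from meiosis, was at 17.1 and 16.9 in WT against 15.2 and 15.8 in TKO at 0 h, and at 16.3 and 16.1 in WT against 15.1 and 13.4 in TKO at 4 h. Its log2 change was -0.13 (limma, adjusted p = 0.145) at 0 h and -0.18 ± 0.07 (SE) at 4 h (limma, adjusted p = 0.0487), just inside the threshold. The 4 h call of Ythdc2 was kept in 1 of 8 fits that left out 1 library. Neither Ythdc1 nor Ythdc2 passed for α-amanitin in WT (0.05 and -0.07) or TKO (-0.10 and -0.12).

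The erasers behaved unalike. Fto was at 34.3 and 34.0 scaled TPM in WT and 31.1 and 29.9 in TKO at 0 h, and at 39.3 and 38.6 in WT against 32.4 and 33.2 in TKO at 4 h. Each TKO library lay below each WT library, and the 4 h libraries were above those at 0 h within each genotype. The log2 change in TKO was -0.16 ± 0.05 (SE) at 0 h (limma, adjusted p = 0.0183) and -0.24 ± 0.05 at 4 h (limma, adjusted p = 0.00196). With α-amanitin Fto rose by 0.18 ± 0.05 on the log2 scale in WT (limma, adjusted p = 0.0172), and its log2 change in TKO was 0.10 (95% interval -0.01 to 0.20). With deposited TPM these values were -0.06 and -0.09 for genotype and 0.03 for α-amanitin in WT, and none passed.

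Alkbh5 was at 47.8 and 42.5 scaled TPM in WT and 41.1 and 42.5 in TKO at 0 h, where the genotypes overlapped. At 4 h it was at 38.9 and 40.7 in WT against 43.1 and 41.3 in TKO, so TKO lay above WT. The log2 changes between genotypes were -0.11 (limma, adjusted p = 0.18) and 0.08 (limma, adjusted p = 0.291). The change with α-amanitin was -0.17 in WT, just outside the threshold (limma, adjusted p = 0.0544), and 0.01 in TKO (limma, adjusted p = 0.925).

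**Figure D2:**
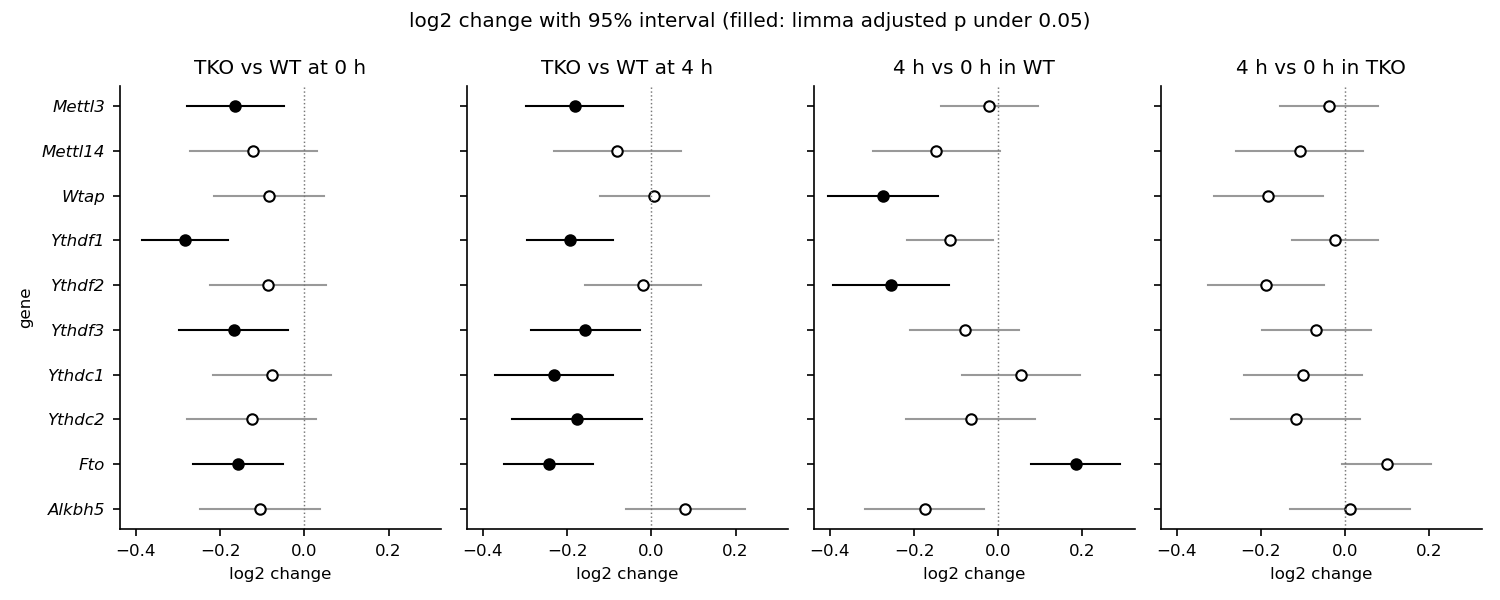
log2 change on the log2(scaled TPM + 1) scale with its 95% interval for each member in 4 comparisons, filled where the limma adjusted p was under 0.05. The members lie between -0.28 and -0.08 for TKO against WT at 0 h, and in WT α-amanitin moved Wtap and Ythdf2 below 0 and Fto above it.

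After 4 h of α-amanitin, 3 of the 10 members changed in WT cells, namely Wtap and Ythdf2, which fell, and Fto, which rose, each by less than 1.5-fold (0.0882% of genes passed that size as higher and 2.01% as lower). Of all genes tested, 15.8% passed as lower and 21.9% as higher. In TKO cells 0 members passed (limma), with 2 of 10, Wtap and Ythdf2, at an unadjusted p under 0.05. Of all genes, 0.265% passed as lower (0.16% past 1.5-fold) and 0.0% as higher in TKO. These shares depend on the fit. With voom on recovered reads, 503 genes passed as lower and 234 as higher in TKO, against 33 and 0 here, and still no member. TPM is relative within a library, so a loss shared by all transcripts cannot be seen and each change is relative to the median gene. Each of these WT calls was lost in fits that left out 1 WT library. The log2 changes over all fits that left out 1 library stayed at -0.29 to -0.25 (Wtap), -0.26 to -0.24 (Ythdf2) and 0.18 to 0.20 (Fto). With deposited TPM, 5 members passed in WT (limma), namely Alkbh5, Mettl14, Wtap, Ythdf1 and Ythdf2, so the call of Fto was lost. Without TKO 4 h replicate 1, the TKO count became 3 (Wtap, Ythdc1 and Ythdf2) and the WT count 5.

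Replicates also set the genotype counts. At 0 h the count went from 4 to 1 without TKO replicate 2 or WT replicate 1, and to 2 without TKO replicate 1. At 4 h it went from 6 to 3 without either WT 4 h replicate, to 7 without TKO replicate 1 and to 4 without TKO replicate 2. Fto and Ythdf1 passed at 4 h in all 8 of these fits.

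The difference of the α-amanitin change between genotypes was tested as an interaction. None of the 10 members passed (limma), and 0 of 10 had an unadjusted p under 0.05, while over all genes 0 passed and 938 of 12467 had an unadjusted p under 0.05. The values ranged from -0.15 (Ythdc1, 95% interval -0.35 to 0.04) to 0.19 (Alkbh5, -0.01 to 0.39). The changes of Wtap and Ythdf2 differed between genotypes by 0.09 (-0.09 to 0.27) and 0.07 (-0.13 to 0.26). A difference between the WT and TKO responses was therefore not shown for any member, and its intervals leave room for differences of up to 0.39 on the log2 scale.

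Ratios between members within a library do not depend on scaling. Mettl3 to Mettl14 stood at 2.03 and 2.05 in WT against 1.93 and 2.04 in TKO at 0 h, so the genotypes overlapped. Fto to Alkbh5 was 0.718 and 0.800 in WT at 0 h and 1.01 and 0.948 in WT at 4 h, without overlap. In TKO it was 0.756 and 0.704 at 0 h and 0.752 and 0.803 at 4 h, with overlap. Wtap to Mettl3 went from 1.17 and 1.25 to 1.03 and 0.990 in WT with α-amanitin, and from 1.28 and 1.28 to 1.24 and 1.08 in TKO. Both ranges moved down without overlap. Ythdf1 to Ythdf2 was 0.994 and 1.02 in WT against 0.878 and 0.879 in TKO at 0 h, and 1.09 and 1.14 against 0.925 and 1.05 at 4 h, so TKO was lower at each time. The share of Ythdf1 in the summed TPM of the 3 YTHDF transcripts was 35.9% and 36.9% in WT and 33.8% and 33.8% in TKO at 0 h. Ratios of 2 against 2 libraries cannot reach an exact two-sided permutation p under 0.333, so these are descriptions of 9 ratios computed.

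**Figure D3:**
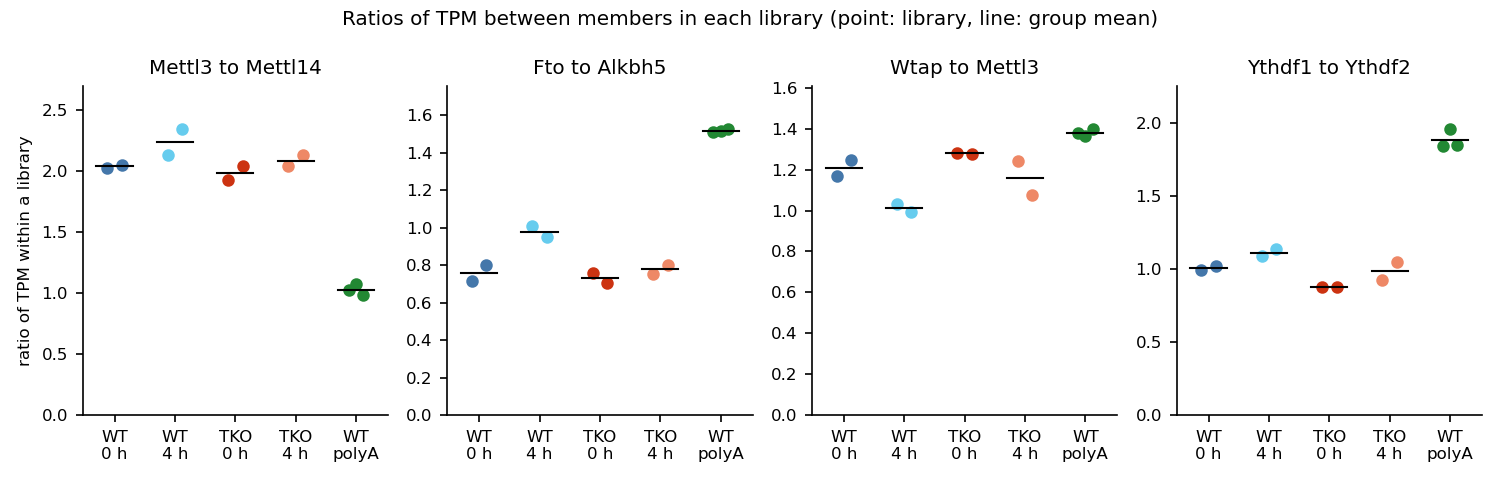
Ratios of TPM between members within each library (vertical axes, from 0) for the 5 groups. Points are libraries and lines are group means. Mettl3 to Mettl14 is 1.93 to 2.35 in the ribodepleted and 0.981 to 1.07 in the polyA libraries.

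Between RNA selections, the log2 changes of the members ran from -0.82 to 0.63. They ran from -0.28 to -0.08 between genotypes at 0 h and from -0.27 to 0.18 with α-amanitin in WT. The wider span was shared by all genes tested, whose median absolute log2 change was 0.41 between selections. It was 0.23 between genotypes at 0 h and 0.17 with α-amanitin in WT. Between the WT polyA-selected and the WT ribodepleted libraries at 0 h, 9 of 10 members passed (limma, adjusted p under 0.05 over 12478 genes), 3 higher and 6 lower in polyA RNA, where 40.2% of all genes passed as higher and 40.8% as lower. Past 1.5-fold were Fto, higher (18.7% of genes), and Ythdf2, lower (16.4%). RNA selection and sequencing experiment differ together and cannot be told apart.

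The subunits of the writer heterodimer differed in opposite directions and lay at about the same level in polyA RNA. Mettl3 was at 57.1 and 52.7 scaled TPM in ribodepleted RNA and at 39.5, 39.6 and 39.2 in polyA RNA, which gave -0.46 ± 0.04 on the log2 scale (SE; limma, adjusted p = 1.37e-05). Mettl14 was at 28.1 and 25.7 against 38.4, 36.9 and 40.0, a change of 0.50 ± 0.05 (limma, adjusted p = 2.99e-05). The ratio of Mettl3 to Mettl14 was accordingly 1.03, 1.07 and 0.981 in polyA RNA, below all 8 ribodepleted libraries. Wtap was at 66.7 and 65.8 against 54.6, 54.0 and 54.8 (-0.28 ± 0.03, limma adjusted p = 8.7e-05).

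Among the readers, Ythdf2 had the largest difference, from 99.8 and 100.3 scaled TPM in ribodepleted RNA to 57.1, 54.3 and 57.2 in polyA RNA. The difference was -0.82 ± 0.04 (SE) on the log2 scale (limma, adjusted p = 2.04e-07), and the groups were far apart. Ythdf3 (-0.43 ± 0.04) and Ythdc2 (-0.26 ± 0.04) were lower and Ythdc1 (0.37 ± 0.05) higher in polyA RNA, with limma adjusted p = 1.04e-05, 0.000569 and 8.96e-05. Ythdf1 was at 99.3 and 102.5 against 105.1, 106.3 and 105.6, a change of 0.07 (95% interval -0.01 to 0.15) that did not pass (limma, adjusted p = 0.108). It passed as higher with deposited TPM (0.17), quantile normalization (0.13) and no filter on low values (0.09). The transcripts of the YTHDF paralogues thus stood at 36.1% and 36.1% Ythdf2 in ribodepleted WT and 26.0%, 25.2% and 26.0% in polyA RNA, as a share of their summed TPM.

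The erasers moved in opposite directions between selections. Fto was at 36.2 and 35.9 scaled TPM in ribodepleted RNA and 56.7, 57.2 and 55.3 in polyA RNA (0.63 ± 0.04, limma adjusted p = 7.08e-07). Alkbh5 was at 50.4 and 44.9 against 37.5, 37.7 and 36.2 (-0.35 ± 0.05, limma adjusted p = 0.000313). Fto to Alkbh5 was 1.51, 1.51 and 1.53 in polyA RNA, above the 0.704 to 1.01 of the ribodepleted libraries. The count of 9 was found in every fit that left out 1 library.

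**Figure D4:**
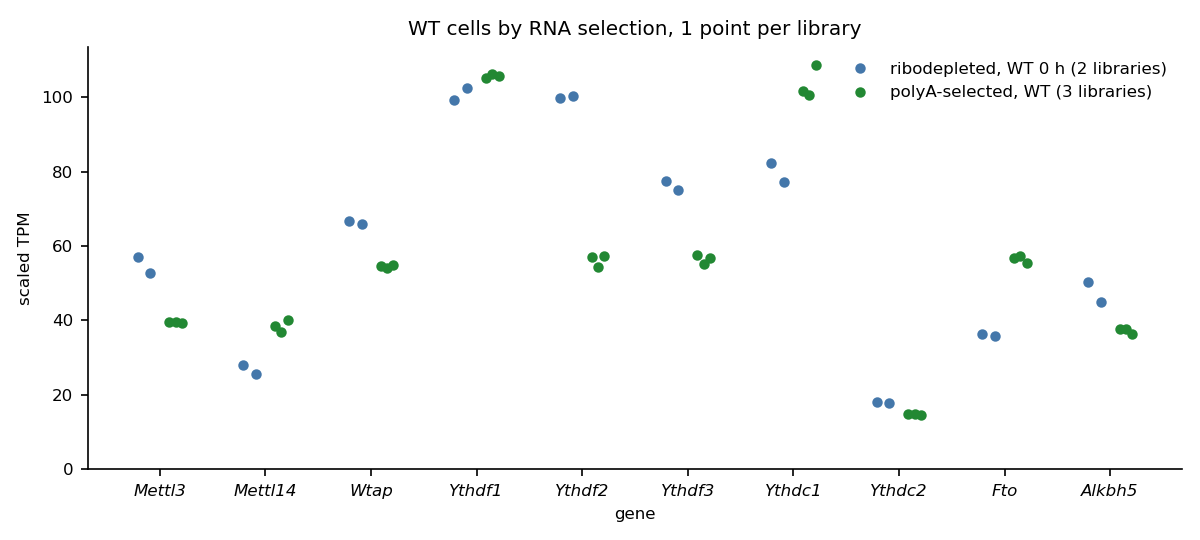
Scaled TPM (vertical axis, from 0) of each member in 2 ribodepleted and 3 polyA-selected libraries of WT cells, 1 point per library. Ythdf2 lies at 99.8 to 100.3 in the ribodepleted and 54.3 to 57.2 in the polyA libraries, and Fto at 35.9 to 36.2 and 55.3 to 57.2.

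Other genes of the pathway were followed as 38 genes in 7 lists, all of which were tested. In TKO against WT at 0 h, 8 were higher, 17 lower and 13 did not pass. At 4 h, 7 were higher, 18 lower and 13 did not pass. Of all genes, 27.8% passed as higher and 28.2% as lower at 0 h, and 29.1% and 30.3% at 4 h. With deposited TPM, 8 of the 38 were higher and 10 lower at 0 h, and 10 were higher and 11 lower at 4 h. Of the other N6-methyltransferases, listed with the partner subunit Trmt112, 4 of 6 genes were lower at each time, Trmt112 among them. Of the AlkB homologues 4 of 7 were lower at 0 h and 3 of 7 at 4 h, and no gene of either list was higher. Mettl16, which methylates U6 RNA and the Mat2a transcript, had log2 changes of -0.49 ± 0.04 (SE) at 0 h and -0.61 ± 0.04 at 4 h (limma, adjusted p = 2.23e-05 and 7.06e-06). Mat2a, which makes the methyl donor S-adenosylmethionine, was higher at 0.32 and 0.37, and so was Ahcy, which clears its by-product, at 0.31 and 0.20. Zc3h13, which anchors the writer complex in the nucleus, was lower by log2 changes of -0.35 and -0.37. It was the 1 of 5 accessory writer genes to pass at 0 h.

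**Figure D5:**
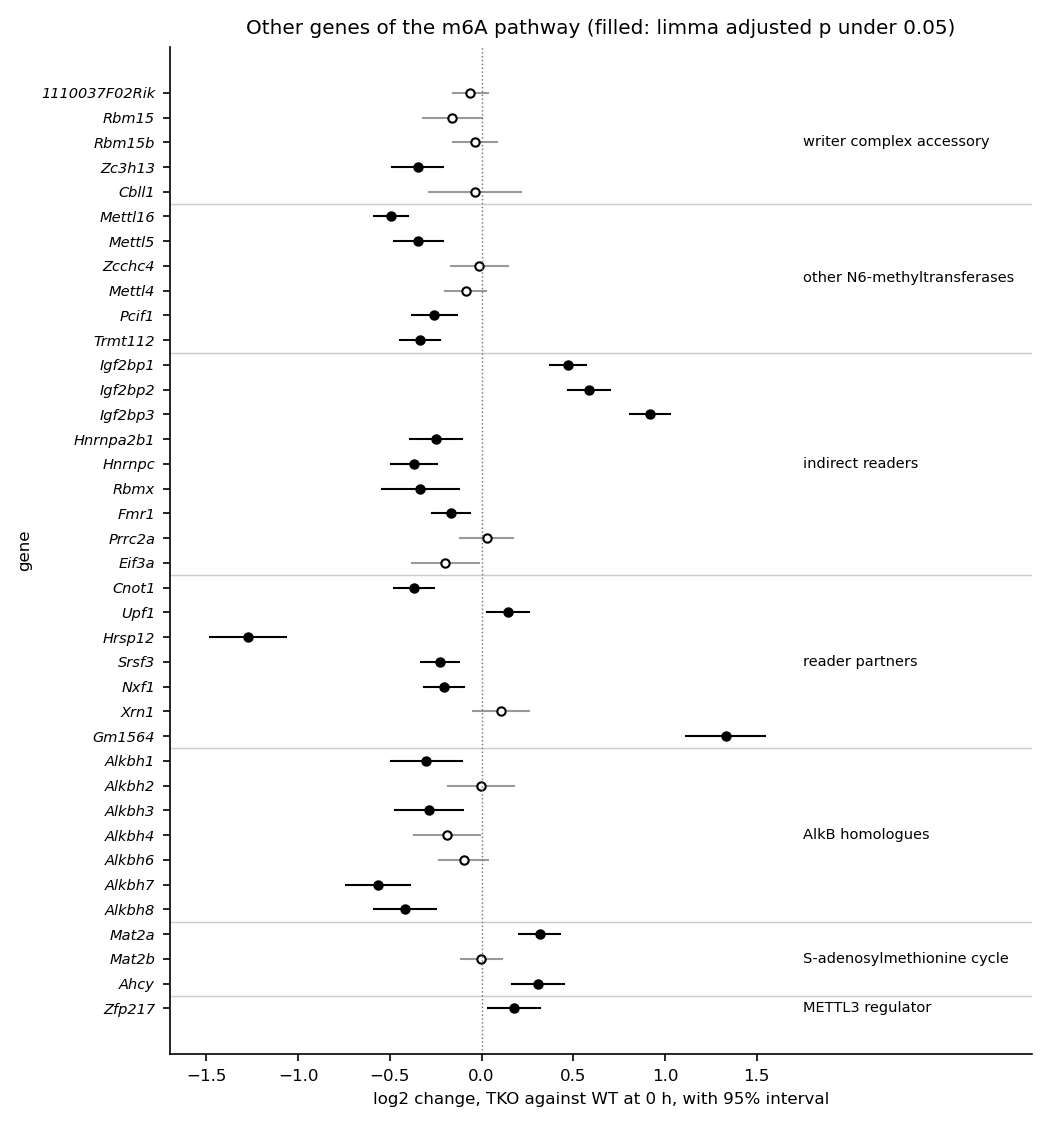
log2 change of the 38 other pathway genes, TKO against WT at 0 h, with 95% intervals, grouped by list and filled where the limma adjusted p was under 0.05. Hrsp12 (-1.27) and Gm1564 (1.33) lie farthest from 0.

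The IGF2BP proteins, which bind and stabilize methylated transcripts, accounted for the 3 indirect readers that were higher in TKO at each time, out of 9. Of the same 9 genes, 4 were lower at 0 h and 5 at 4 h. Over all genes, 27.8% passed as higher and 28.2% as lower at 0 h, and 29.1% and 30.3% at 4 h. Igf2bp3 was at 22.4 and 23.6 scaled TPM in WT and 44.0 and 44.7 in TKO at 0 h, and at 26.8 and 26.6 in WT against 45.6 and 46.3 in TKO at 4 h, so TKO lay above WT at both times. Its log2 change was 0.92 ± 0.05 (SE) at 0 h and 0.76 ± 0.05 at 4 h (limma, adjusted p = 1.87e-06 and 4.7e-06). Igf2bp2 was higher by 0.59 and 0.49 on the log2 scale. Hnrnpc, a nuclear RNA-binding protein whose sites are exposed by m6A, was lower at -0.37 and -0.49.

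Partners of the readers had the widest range. Hrsp12 (now Rida), which bridges YTHDF2 to an endoribonuclease, was at 35.4 and 37.2 scaled TPM in WT and 13.4 and 15.5 in TKO at 0 h, or -1.27 ± 0.09 on the log2 scale (limma, adjusted p = 9.75e-06). At 4 h it was -1.45 ± 0.09. Gm1564 (now Meioc), the meiotic partner of YTHDC2, was at 3.70 and 3.62 in WT against 10.5 and 10.9 in TKO at 0 h, or a difference of 1.33 ± 0.09 (limma, adjusted p = 9.01e-06), and 1.16 ± 0.09 at 4 h. Cnot1, the scaffold of the deadenylase complex that YTHDF2 recruits, was lower at -0.37 and -0.43.

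With α-amanitin in WT cells, 11 of the 38 rose and 7 fell, against 21.9% and 15.8% of all genes, and in TKO cells 0 passed. With deposited TPM, 0 rose and 11 fell, and with quantile normalization 4 rose and 5 fell. The largest falls were those of Alkbh1 (-0.51 ± 0.08), Zfp217, a zinc finger protein reported to bind METTL3 (-0.50 ± 0.06), Rbmx (-0.35 ± 0.09) and Cbll1, an accessory subunit of the writer (-0.34 ± 0.11), with limma adjusted p = 0.0062, 0.00358, 0.0197 and 0.041. Hrsp12 rose by 0.29 and Hnrnpc by 0.27 on the log2 scale, against 0.13 and 0.11 with deposited TPM, where neither passed. The WT count of 18 lay between 1 (without WT 4 h replicate 1) and 24 (without either TKO 4 h replicate) when 1 library was left out, and without TKO 4 h replicate 1 the TKO count became 11.

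Between RNA selections, 17 of the 38 were higher and 16 lower in polyA RNA, beside the 40.2% and 40.8% of all genes. All 5 accessory writer genes passed 1.5-fold, beside 18.7% of all genes passing that size as higher and 16.4% as lower. Zc3h13 (1.13 ± 0.04) and Cbll1 (1.10 ± 0.06) were higher, and Rbm15 (-1.78 ± 0.06) and 1110037F02Rik, now Virma (-0.92 ± 0.05), were among the 3 lower. Rbm15 and Virma recruit the complex to its targets. Their limma adjusted p values were 6.09e-08, 5.35e-07, 3.01e-08 and 3.02e-07.

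The genes whose pattern over the 8 ribodepleted libraries was most like that of Mettl3 were Gtf2ird1 (Pearson r = 0.993), Fnbp1 (0.983) and Pcdhga2 (0.980). For Ythdf1 they were Kctd6 (0.994), 1110002L01Rik (0.992) and Klf15 (0.992). Of these genes, Pcdhga2 lay near the filter on low values, at a mean scaled TPM of 1.52 in WT and 0.79 in TKO at 0 h. Among the members, Mettl3 was most like Ythdf1 (0.880) and least like Wtap (0.256), and Ythdf1 was most like Ythdf3 (0.885). These correlations describe 8 libraries in 4 groups that share cells and scaling.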

How the data were processed

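RNA was sequenced from 11 libraries of mouse ESCs, and groups were taken from the sample titles. The authors deposited 1 TPM value per gene for each library, which per their methods came from reads filtered, trimmed, aligned to mm9 and counted per gene with HTSeq. Versions are not given in the sources used here, and the conversion to TPM is described for the polyA libraries only. From the deposited TPM, whole reads were recovered for 100% of genes (tolerance 0.01 reads) and used for depth, for comparing replicates and as an alternative input to voom. The 8 ribodepleted libraries were scaled by median-of-ratios size factors, and log2(scaled TPM + 1) of genes with a mean above 1 entered limma 3.58.1 under R 4.3.3 (eBayes with trend, 1 coefficient per group). The 3 polyA and 2 untreated WT ribodepleted libraries had a fit of their own. Tests were two-sided, Benjamini-Hochberg adjusted over all genes tested, at 0.05. The fit was tested on simulated data. All 10 members were named in every comparison, and of the other pathway genes up to 2 highest and 2 lowest past the threshold per list. Gene names of older symbols came from RefSeq. The members, lists and tests were chosen with earlier results of these data known. Alternatives were the pseudocount (0.1 and 5), the filter, the scaling, the variance trend, voom, a replicate block and leaving out each library. Replicate numbers did not pair the samples.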

Additional observations from a re-analysis of the deposited data

Results flagged for a closer look

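1 result stood out because, on scaled TPM, the genotypes moved opposite ways under the same treatment, without overlap between times in either genotype. Pcif1, which methylates cap-adjacent adenosine, went from 23.9 and 23.2 scaled TPM at 0 h to 25.9 and 26.7 at 4 h of α-amanitin in WT, and from 19.3 and 19.8 to 18.3 and 19.2 in TKO. The libraries did not overlap between times in either genotype, but 2 against 2 libraries cannot reach an exact two-sided permutation p under 0.333. Neither change passed, at 0.15 in WT (limma, adjusted p = 0.0517) and -0.06 in TKO (limma, adjusted p = 0.523). The difference between the genotypes' log2 changes was -0.21, which did not pass the interaction test over all genes (limma), where 0 of 12467 genes did. On deposited TPM the WT means were 23.8 at 0 h and 23.8 at 4 h, without a rise, and the TKO means were 21.1 and 19.0.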

How the results depend on the processing

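Without size factors, on deposited TPM, the count of members passing was 1 at 0 h and 1 at 4 h between genotypes and 5 for α-amanitin in WT, and quantile normalization gave 2 at 4 h. On that scale the log2 change turned for Wtap (0.011), Ythdf2 (0.0075) and Ythdc1 (0.018) in TKO at 0 h, Mettl14 (0.070) and Ythdf2 (0.14) in TKO at 4 h, Ythdc1 (-0.10) with α-amanitin in WT and Alkbh5 (-0.084) in TKO, and for the interaction of Mettl3 (0.044) and Ythdc2 (0.0068). The same setting turned 1110037F02Rik (0.030 in TKO at 4 h, -0.030 with α-amanitin in WT) and Nxf1 (-0.020 with α-amanitin in WT). Quantile normalization turned Ythdf2 in TKO at 4 h (0.095) and Ythdc1 with α-amanitin in WT (-0.029), and no filter turned Wtap in TKO at 4 h (-0.033). The median of all genes with α-amanitin in WT was 0.03 with size factors and -0.11 without, where 397 genes passed as higher and 3145 as lower, against 2730 and 1965. Between RNA selections, Ythdf1 passed with deposited TPM (0.17), quantile normalization (0.13) and no filter (0.09), and the other 9 members passed in all 8 of these alternatives. For the 38 other pathway genes with α-amanitin in WT, deposited TPM gave 11 calls and quantile normalization 9, against 18. The causes were not tested. Leaving out 1 library moved the member counts to 1 to 4 (0 h), 3 to 7 (4 h), 0 to 5 (α-amanitin in WT) and 0 to 3 (in TKO). It moved log2 changes across 0 for Wtap (-0.070 to 0.092) and Ythdf2 (-0.11 to 0.078) in TKO at 4 h, Mettl3 with α-amanitin in WT (-0.080 to 0.035), and Ythdf3 (-0.14 to 0.0099) and Alkbh5 (-0.017 to 0.042) in TKO. The interaction crossed 0 for Mettl3 (-0.072 to 0.041), Mettl14 (-0.025 to 0.10), Ythdf2 (-0.023 to 0.16), Ythdf3 (-0.062 to 0.089) and Ythdc2 (-0.13 to 0.033). Where a group was left with 1 library, that library was assumed to vary like the others. With a replicate block the genotype count at 4 h was 5, as Ythdc2 was lost (limma, adjusted p = 0.0546), and no other member call changed. Without the variance trend, Ythdf3 lost its genotype calls at 0 h and 4 h and Ythdc2 its call at 4 h. Ythdc2 also lost that call with a pseudocount of 5. Deviations of replicate 1 from its group mean correlated over genes between groups at -0.04 to 0.12, so numbers were not taken as pairs. Members held 743 reads or more in a library, so counting error of up to 3.67% limits the smallest changes.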
